A study of Mus musculus with 12 samples.

Results

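The epidermal differentiation complex is a cluster of genes for proteins of the outermost epidermis. Its members here were all rows of the gene table whose symbol starts with Lce or Sprr, plus Flg, Flg2, Hrnr, Rptn, Ivl, Crnn and Tchhl1, which gave 42 of 18858 genes. They comprised 14 Lce1, 6 Lce3 and 1 Lce6 gene (late cornified envelope), 10 Sprr2 and 4 other Sprr genes (small proline-rich), 6 filaggrin-type genes and Ivl. Of these, 40 passed the filter on low counts; Sprr2a2, listed at 0 counts in all 8 samples compared, and Sprr3, with 0 to 4 counts a sample, did not.

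Skin RNA selected for poly(A) tails was sequenced from BALB/C mice, an inbred strain (8 weeks old per the series text), in 4 groups of 3 labelled samples named TSeL+L, TSeL, TL+L and PBS (phosphate-buffered saline, the control). All groups share the strain and tissue, and what TL, TSeL and L stand for is not given in the labels. The columns held 16630580 to 17318158 estimated counts, of which the members took 0.194% to 0.572%. Over all genes the columns read as TSeL differed little beyond counting noise, as did those read as TSeL+L (over the members alone, those of TSeL+L had mean chi-squares of 2.03 to 7.14, where 1 is counting noise), so each set of 3 was averaged to 1 sample, and both groups lack replicates. The reading of their column codes as TSeL and TSeL+L underlies every value given for these groups. The labels do not say that samples came from separate animals, so p-values measure only the spread between these samples, which may be technical. Keratinocyte markers were present in every sample (summed basal markers 4399 to 8294 CPM, counts scaled to the library's effective size). Several samples stood apart on summed markers of muscle or hair follicle, and whether their tissue content differed was not tested. Summed skeletal muscle markers were 112700 CPM in TSeL, against 6032 to 33480 CPM in the other 7 samples, and summed hair shaft and inner root sheath markers ran from 31.7 CPM in PBS 2 to 37380 CPM in TL+L 3.

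As keratinocytes leave the basal layer they build the cornified envelope, a sheet of proteins cross-linked by transglutaminases beneath the plasma membrane. Involucrin forms an early scaffold, small proline-rich proteins act as cross-bridges, and late cornified envelope proteins are added near the end. Filaggrin and its relatives are S100-fused proteins of the granular layer, where filaggrin binds keratin filaments and later yields the amino acids that hold water in the outer layer. In human skin, LCE1 genes are known from the resting epidermis and LCE3 genes from epidermis with a disturbed barrier, as in psoriasis.

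The classes differed in the letters before their start sites as well as in their levels, and 6 members that stand for the classes are shown with the 250 bases before the start (RefSeq sequences, build GRCm38.p6). Capitals mark TGANTCA, the core letters bound by AP-1 factors, and TATAAA, the TATA box; both were searched on both strands.
Lce1a1, chr3:92648308-92648557, minus strand: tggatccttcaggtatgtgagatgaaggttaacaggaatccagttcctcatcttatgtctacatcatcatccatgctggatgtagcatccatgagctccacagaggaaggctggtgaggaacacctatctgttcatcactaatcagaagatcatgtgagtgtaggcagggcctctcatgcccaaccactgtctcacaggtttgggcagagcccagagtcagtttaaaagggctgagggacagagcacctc
Lce3f, chr3:92991967-92992216, plus strand: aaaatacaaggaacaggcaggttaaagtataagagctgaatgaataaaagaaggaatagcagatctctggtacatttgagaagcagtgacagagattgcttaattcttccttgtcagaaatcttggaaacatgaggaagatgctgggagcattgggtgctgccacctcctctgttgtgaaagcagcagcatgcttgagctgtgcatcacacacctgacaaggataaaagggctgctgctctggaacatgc
Sprr2d, chr3:92338890-92339139, plus strand: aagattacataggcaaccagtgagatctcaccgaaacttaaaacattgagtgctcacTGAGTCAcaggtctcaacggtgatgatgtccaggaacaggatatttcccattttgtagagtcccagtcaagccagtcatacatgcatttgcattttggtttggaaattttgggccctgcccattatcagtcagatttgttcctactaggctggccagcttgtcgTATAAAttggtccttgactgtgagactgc
Sprr2i, chr3:92407741-92407990, plus strand: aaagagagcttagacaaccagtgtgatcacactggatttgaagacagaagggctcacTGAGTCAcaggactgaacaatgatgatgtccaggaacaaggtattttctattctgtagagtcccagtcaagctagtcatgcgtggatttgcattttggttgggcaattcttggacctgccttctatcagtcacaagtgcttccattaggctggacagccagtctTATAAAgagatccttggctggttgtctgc
Ivl, chr3:92573736-92573985, minus strand: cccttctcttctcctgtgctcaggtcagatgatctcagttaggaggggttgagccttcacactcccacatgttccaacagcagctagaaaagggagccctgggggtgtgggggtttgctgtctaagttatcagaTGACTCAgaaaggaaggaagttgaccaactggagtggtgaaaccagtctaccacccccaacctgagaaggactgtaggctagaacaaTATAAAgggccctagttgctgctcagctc
Crnn, chr3:93144539-93144788, plus strand: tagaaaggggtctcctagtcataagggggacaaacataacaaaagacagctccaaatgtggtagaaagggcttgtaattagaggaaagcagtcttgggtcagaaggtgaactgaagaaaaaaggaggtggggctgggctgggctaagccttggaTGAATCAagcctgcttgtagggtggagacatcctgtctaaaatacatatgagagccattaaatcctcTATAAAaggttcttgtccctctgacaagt

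Promoters were found for 41 of the 42 members, Lce1f being the exception. The AP-1 letters occurred in 6.75% of 32851 promoter windows of this length and in 15 of the 41 member windows. None of 13 Lce1 and none of 6 Lce3 windows held them, against 7 of 10 Sprr2, 5 of 6 filaggrin-type and 2 of 4 other Sprr windows and that of Ivl. In the 7 Sprr2 windows the letters TGAGTCA began 193 to 198 bases before the start, with a TATA box 29 bases before it. The windows of Sprr2a1, Sprr2a2 and Sprr2a3 held neither, and those of Sprr2a1 and Sprr2a2 were 100% identical. The letters TTNNGNAA, read by C/EBP factors, were in 26 of the 41 member windows, against 36.8% of all windows; they were in 6 of 6 Lce3, 9 of 10 Sprr2, 5 of 6 filaggrin-type, 3 of 4 other Sprr and 2 of 13 Lce1 windows and that of Lce6a, and not in that of Ivl. The letters TTCNNNGAA (STAT factors) were in 2 of 41 member windows against 7.02% of all, and AACCNGTT (grainyhead-like factors) in 1 of 41 against 1.79%. These are matches of letters and not sites of measured binding.

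The Lce1 and Lce3 genes, which lie side by side in gene order, were highest in different samples. TPM values (transcript levels scaled for length and depth) were summed over each class; those of TSeL+L and TSeL are the authors' deposited means. The Lce1 sum was 988.5 TPM in TSeL+L, 139.7 TPM in TSeL, 454.5, 779.5 and 821.2 TPM in TL+L and 432.3, 326.3 and 421.5 TPM in PBS. TSeL+L was highest and TSeL lowest, and every TL+L sample lay above every PBS sample. The Lce3 sum was 260.6 TPM in TSeL+L, 267.4 TPM in TSeL, 1390, 997.6 and 242.7 TPM in TL+L and 861.9, 1164 and 1125 TPM in PBS. Here TSeL+L, TSeL and TL+L 3 were low together, TL+L 2 lay within the PBS range and TL+L 1 above it. The ratio of the Lce3 to the Lce1 sum was accordingly 0.264 in TSeL+L, 1.91 in TSeL, 3.06, 1.28 and 0.296 in TL+L and 1.99, 3.57 and 2.67 in PBS. In bulk tissue, fewer cells of a type and less RNA per cell cannot be told apart.

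**Figure D1:**
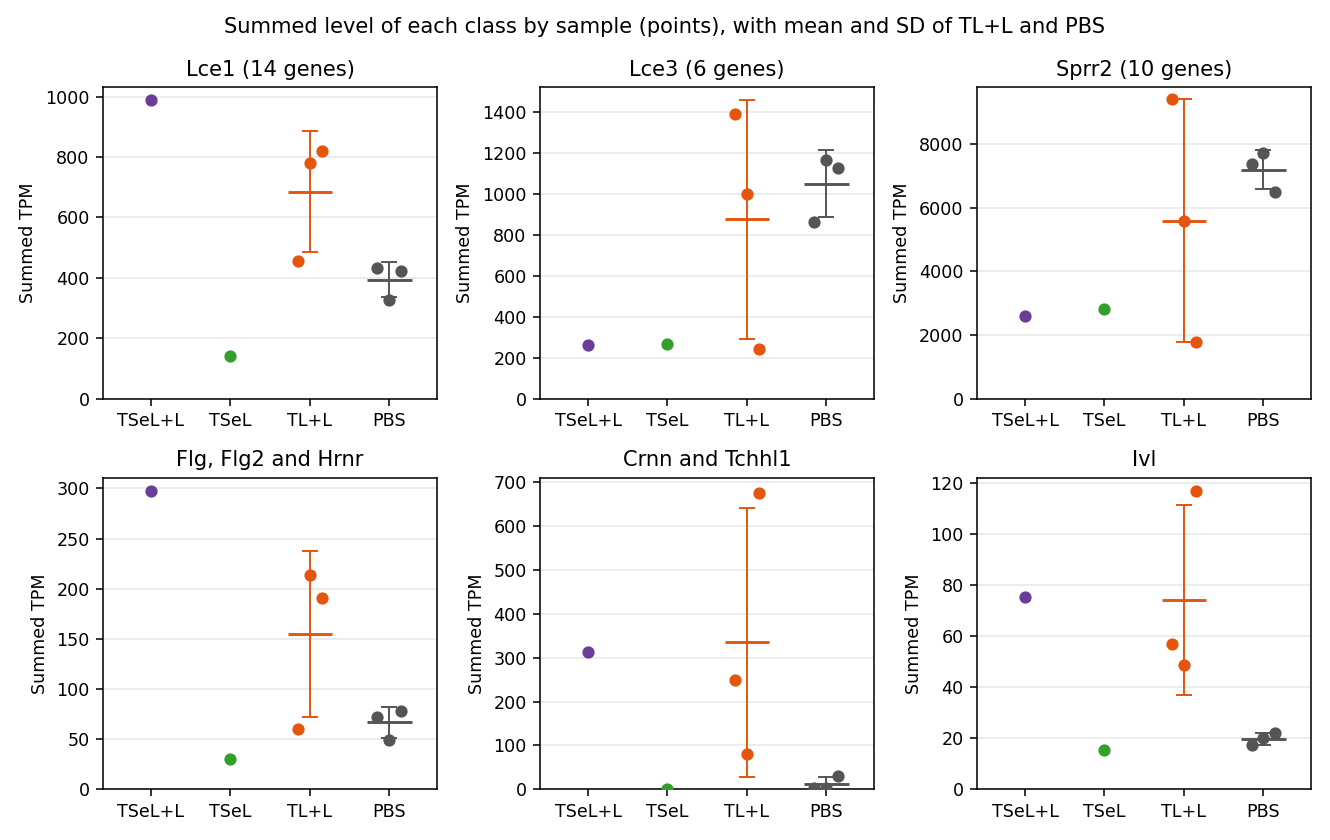
Summed TPM of 6 classes of members (vertical axes) in each sample (points), grouped as TSeL+L, TSeL, TL+L and PBS, with the mean and SD of the 3 TL+L and 3 PBS samples. In TPM, Lce1, filaggrin and involucrin sums were lowest in TSeL, whereas Lce3 and Sprr2 sums were low in TSeL+L, in TSeL and in 1 TL+L sample. In CPM the Sprr2 sum of TSeL lay nearer to that of PBS 3 than to that of TL+L 3.

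The Sprr2 genes, most abundant of the classes per length, had a pattern close to that of Lce3 in TPM. Their sum was 2584 TPM in TSeL+L, 2824 TPM in TSeL, 9398, 5586 and 1772 TPM in TL+L and 7373, 7705 and 6500 TPM in PBS. TL+L spanned the whole range of the study, with TL+L 1 the highest and TL+L 3 the lowest sample. In CPM the Sprr2 sum was 1121 in TSeL+L, 1525 in TSeL, 3130, 1714 and 788.8 in TL+L and 2925, 2787 and 1829 in PBS. TSeL was then still below every PBS sample, but nearer to TL+L 2 and PBS 3 than to TL+L 3. How low TSeL stood for Sprr2 thus depends on the unit. The Lce3 sum was 0.101 of the Sprr2 sum in TSeL+L, 0.0947 in TSeL, 0.148, 0.179 and 0.137 in TL+L and 0.117, 0.151 and 0.173 in PBS, a much narrower spread than that of Lce3 over Lce1. The sum of Flg, Flg2 and Hrnr was 297.1 TPM in TSeL+L, 29.8 TPM in TSeL, 59.8, 213.4 and 191.1 TPM in TL+L and 72.4, 49.2 and 78.4 TPM in PBS. Its highest and lowest samples were those of Lce1, but TL+L 1 lay within the PBS range.

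**Figure D2:**
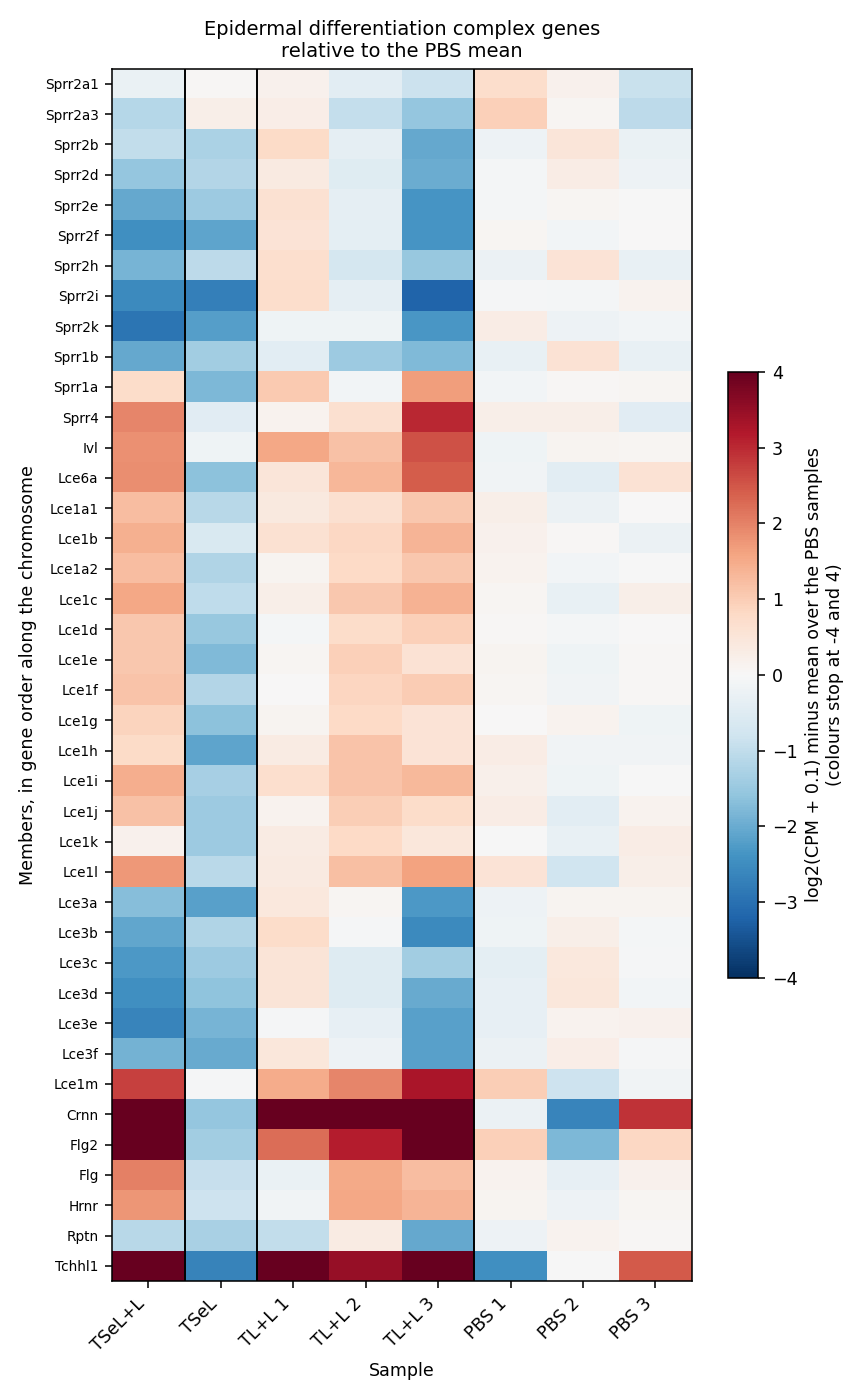
Heatmap of the 40 tested members (rows, in gene order along the chromosome) in 8 samples (columns, TSeL+L, TSeL, TL+L and PBS); colour gives log2(CPM + 0.1) minus the mean of the PBS samples, and stops at -4 and 4. Lce1, Lce6a and Ivl were red in TSeL+L and in TL+L, except Lce1d in TL+L 1, and blue in TSeL, while the Lce3 block and most Sprr2 genes were blue in TSeL+L, TSeL and TL+L 3.

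Between TL+L and PBS, involucrin and 2 Lce1 genes were called higher and no member was called lower. Genes said below to have risen or fallen between these groups are those called. Expected counts were tested with edgeR's quasi-likelihood F-test on all 15791 genes, with Benjamini-Hochberg adjustment over all of them and a call at an adjusted p under 0.05. Of the 40 members 3 were called (7.5%), all higher in TL+L, against 12.8% of all genes tested (5.67% higher and 7.17% lower). The members' share of calls was thus below the total share of all genes, but above their 5.67% called higher. With 3 calls, nothing about the members is read from these shares. In 11 members every TL+L sample exceeded every PBS sample (20.6% of all genes), and 7 of these were Lce1 genes; in 1 member, Sprr1b, every TL+L sample was lower (21.8% of all genes). The calls rest on few samples: no member was called without PBS 1, PBS 2, PBS 3 or TL+L 3, when 0.101%, 0.603%, 0.92% and 0.444% of all genes were. Without TL+L 1 the sole call was Hrnr (1.16% of all genes). Without TL+L 2 there were 9 calls, 8 higher and 1 lower (Rptn), a lower share than the 40% of all genes. DESeq2 called 13 members, 12 higher and 1 lower, against 25.7% of all genes. No call held when samples were scaled to basal keratinocyte markers, a scaling added after seeing the data, under which 1.59% of all genes were called; the Lce1 median log2 fold change was then 0.58, against 0.72 without that scaling.

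Ivl (NCBI gene 16447) encodes involucrin, an early scaffold of the envelope. It stood at 75.0 CPM in TSeL+L, 18.9 CPM in TSeL, 61.7, 47.8 and 124.7 CPM in TL+L and 18.6, 22.9 and 22.1 CPM in PBS. All TL+L samples were above all PBS samples, TSeL+L lay within the TL+L range and TSeL within the PBS range. In TPM, TSeL (15.3) lay below the PBS samples (17.2, 20.2 and 22.0), so its place depends on the unit. The log2 fold change of TL+L against PBS was 1.88 (SE 0.36, adjusted p = 0.0314).

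Lce1i (NCBI gene 76585), a late envelope protein gene, stood at 11.5 CPM in TSeL+L, 1.61 CPM in TSeL, 6.68, 9.28 and 10.4 CPM in TL+L and 4.82, 3.69 and 4.09 CPM in PBS. Lce1b (NCBI gene 68720), of the same family, stood at 24.8 CPM in TSeL+L, 5.94 CPM in TSeL, 13.9, 16.2 and 23.4 CPM in TL+L and 10.3, 9.53 and 7.76 CPM in PBS. In both genes the groups did not overlap, TSeL+L being highest and TSeL lowest. The log2 fold change of TL+L against PBS was 1.07 for Lce1i (SE 0.24, adjusted p = 0.0395) and 0.95 for Lce1b (SE 0.24, adjusted p = 0.0478).

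The other 12 Lce1 genes were not called, although all 14 had positive log2 fold changes, as had 51.1% of all genes, with a class median of 0.72 (range 0.50 to 2.37) against 0.01 over all genes tested. Lce1a1 (NCBI gene 67127), the most abundant Lce1 gene, stood at 56.6 CPM in TSeL+L, 11.1 CPM in TSeL, 31.7, 37.7 and 50.8 CPM in TL+L and 28.2, 20.3 and 24.2 CPM in PBS. All TL+L samples were above all PBS samples, with a log2 fold change of 0.73 (SE 0.22, adjusted p = 0.068). The Lce1 genes share stretches of sequence (0% to 27.1% of the 50-base words of a gene occurred in another gene's GENCODE vM21 transcripts). The called genes Lce1i and Lce1b shared 27.1% and 24.4% of their words. Expected counts were fractional in 100% of columns for Lce1a1 and in 66.7% for Lce1i and for Lce1b. The split of reads between the Lce1 genes, the called ones included, is therefore uncertain. Lce1m, which lies beyond the Lce3 block in gene order, shared none of its words; its log2 fold change of TL+L against PBS was 2.37 (SE 0.68, adjusted p = 0.0637). Lce6a (NCBI gene 78382), the remaining late envelope gene, stood at 27.3 CPM in TSeL+L, 2.31 CPM in TSeL, 10.4, 18.6 and 40.2 CPM in TL+L and 6.71, 5.47 and 11.01 CPM in PBS, and TL+L overlapped PBS through TL+L 1.

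All 6 Lce3 and all 9 tested Sprr2 genes had negative log2 fold changes for TL+L against PBS, with medians of -0.29 and -0.32, and none was called (adjusted p 0.405 to 0.909). Both medians turned positive, to 0.12 and 0.11, when TL+L 3 was left out. Lce3f (NCBI gene 69520), the most abundant Lce3 gene in CPM, stood at 13.7 CPM in TSeL+L, 12.8 CPM in TSeL, 70.3, 45.4 and 11.4 CPM in TL+L and 44.4, 61.9 and 50.3 CPM in PBS. TSeL+L, TSeL and TL+L 3 were close together below the rest. Reads of Lce3c, Lce3d, Lce3e and Lce3f are hard to assign, since 35.7% to 49.3% of their 50-base words occurred in another gene.

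Sprr2d (NCBI gene 20758) encodes an envelope cross-bridging protein, and its transcripts made up 42.8% to 50.8% of the Sprr2 TPM in every sample. Sprr2d stood at 292.2 CPM in TSeL+L, 379.8 CPM in TSeL, 1108, 617.8 and 217.9 CPM in TL+L and 809.6, 1068 and 743.6 CPM in PBS. Sprr2i (NCBI gene 20763), which had the widest range of the Sprr genes, stood at 21.8 CPM in TSeL+L, 18.9 CPM in TSeL, 205.4, 99.5 and 13.6 CPM in TL+L and 122.5, 119.5 and 137.9 CPM in PBS. In both genes TSeL+L and TSeL were below every PBS sample and TL+L lay on both sides. Sprr2a1 (NCBI gene 20755) stood at 551.2 CPM in TSeL+L, 683.6 CPM in TSeL, 740.2, 492.3 and 362.3 CPM in TL+L and 1090, 742.9 and 359.9 CPM in PBS. All groups overlapped the PBS range for Sprr2a1, and PBS 1 and PBS 3 were its highest and lowest samples in that group.

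In TSeL against PBS, the Sprr2 genes differed by position and promoter letters. Sprr2a1 and Sprr2a3, at the start of the cluster in gene order and without the AP-1 letters, had log2 fold changes of -0.10 and 0.02 for TSeL against PBS, whereas the 7 Sprr2 genes with the letters ranged from -2.75 to -1.09, which is a description of 9 genes with no test. For TSeL+L against PBS the split was not complete. The same 7 ranged from -3.02 to -1.04, and Sprr2a3 (-1.36) lay within their range and Sprr2a1 (-0.41) above it. For TL+L against PBS the order was not seen, with -0.46 and -0.75 for Sprr2a1 and Sprr2a3 and -0.63 to -0.19 for the 7. Together Sprr2a1, Sprr2a2 and Sprr2a3 made up 21.6% of the Sprr2 TPM in TSeL+L, 30.2% in TSeL, 10.9%, 10.3% and 20.7% in TL+L and 21.9%, 11.7% and 7.38% in PBS. Of the 50-base words of Sprr2a1 and Sprr2a2, 96.3% and 96.5% were found in another gene, and of those of Sprr2a3 61.1%. The separate values of these 3 genes, and the 0 counts of Sprr2a2, are therefore uncertain.

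Sprr1a and Sprr1b, genes on either side of Sprr3 for cross-bridging proteins of stratified epithelia, differed in their order over the samples. Sprr1a stood at 301.4 CPM in TSeL+L, 52.0 CPM in TSeL, 378, 166.9 and 580.2 CPM in TL+L and 167.6, 186.2 and 190.8 CPM in PBS. Sprr1b stood at 57.7 CPM in TSeL+L, 89.5 CPM in TSeL, 176.3, 86.0 and 69.4 CPM in TL+L and 192.5, 353.9 and 194.5 CPM in PBS. Sprr1b was lower than in any PBS sample in all other samples, whereas Sprr1a was high in TSeL+L, TL+L 1 and TL+L 3. The ratio of their TPM was 5.54 in TSeL+L, 0.614 in TSeL, 2.27, 2.06 and 8.86 in TL+L and 0.923, 0.557 and 1.04 in PBS. All 3 TL+L ratios exceeded all 3 PBS ratios; a permutation of 3 against 3 cannot give a p under 0.1. Neither gene was called between TL+L and PBS, with log2 fold changes of 1.05 (SE 0.41, adjusted p = 0.124) for Sprr1a and -1.16 (SE 0.42, adjusted p = 0.102) for Sprr1b. Sprr1a, Sprr1b, Sprr4 and Tchhl1 lie outside the rule for members shown with all values and were chosen after their values were seen.

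Sprr4 was near the limit of counting, with 8 counts in TSeL+L, 0 in TSeL, 1, 2 and 18 in TL+L and 1, 1 and 0 in PBS; the exact 95% interval of the 18 counts was 10.7 to 28.4 and that of the 8 counts 3.45 to 15.8, for counting error only.

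Among the filaggrin-type genes, Crnn and Tchhl1 spanned the widest range of all members. Crnn (NCBI gene 381457) encodes cornulin, an S100-fused protein of squamous epithelia. It stood at 174.1 CPM in TSeL+L, 0.629 CPM in TSeL, 146.4, 50.2 and 402.1 CPM in TL+L and 1.71, 0.246 and 15.7 CPM in PBS. Tchhl1, a relative of trichohyalin, stood at 153 CPM in TSeL+L, 0.350 CPM in TSeL, 138.9, 31.9 and 356.5 CPM in TL+L and 0.427, 2.77 and 15.8 CPM in PBS. For both, every TL+L sample and TSeL+L lay above all PBS samples. The spread within groups was wide too, and neither was called for TL+L against PBS. Crnn had a log2 fold change of 5.08 (SE 1.44, adjusted p = 0.0614) and Tchhl1 4.79 (SE 1.37, adjusted p = 0.0632). Both were called when TL+L 2 was left out, a fit in which 40% of all genes were called.

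Crnn ordered the samples almost as the 21 measured hair shaft and inner root sheath markers did. Their summed level was 18320 CPM in TSeL+L, 199.9 CPM in TSeL, 19900, 5322 and 37380 CPM in TL+L and 221.8, 31.7 and 1961 CPM in PBS. The sole difference in order was that TSeL+L and TL+L 1 exchanged places. Tchh, the trichohyalin gene and the most abundant hair marker, had the same order as Crnn over the 8 samples. For TL+L against PBS 5 of the 21 hair markers rose and none fell, with a median log2 fold change of 4.57. Over all genes tested 5.67% rose and 7.17% fell. The part of hair follicle content in the Crnn and Tchhl1 values was not tested.

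**Figure D3:**
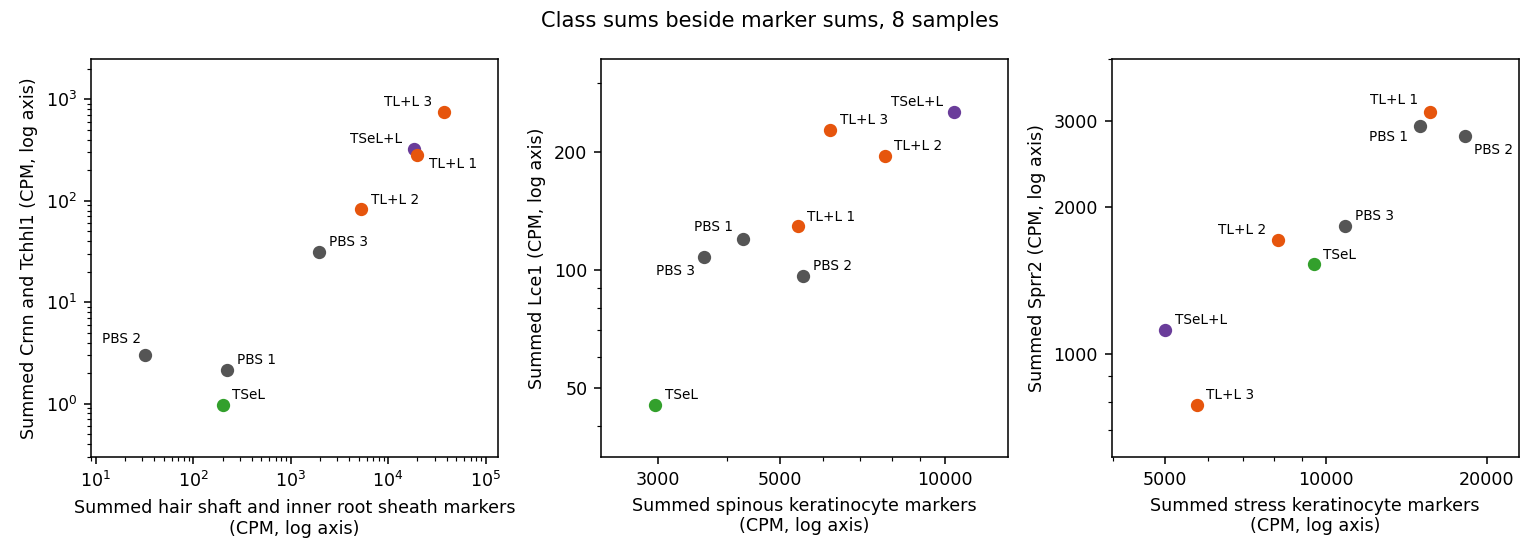
Summed CPM of Crnn and Tchhl1, of Lce1 and of Sprr2 genes (vertical log axes) against the summed CPM of hair, spinous and stress keratinocyte markers (horizontal log axes) in the 8 samples; points are samples, coloured by group (TSeL+L, TSeL, TL+L, PBS), and share the same libraries. Crnn and Tchhl1 summed to 758.6 CPM in TL+L 3, the sample with the highest hair marker sum, and to 0.979 CPM in TSeL.

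Flg (NCBI gene 14246), the filaggrin gene, stood at 1912 CPM in TSeL+L, 248.4 CPM in TSeL, 394.6, 1370 and 1118 CPM in TL+L and 527.5, 379 and 538.2 CPM in PBS. TSeL+L was above and TSeL below every other sample, and TL+L 1 lay within the PBS range. The log2 fold change of TL+L against PBS was 1.00 (SE 0.45, adjusted p = 0.161), and those of its relatives Flg2 and Hrnr were 3.36 (SE 0.90, adjusted p = 0.0557) and 1.08 (SE 0.41, adjusted p = 0.115). Hrnr was called (adjusted p = 0.033) when TL+L 1 was left out, as were 1.16% of all genes. Rptn (NCBI gene 20129), the repetin gene, was highest in other samples. It stood at 249.2 CPM in TSeL+L, 217.8 CPM in TSeL, 271.3, 669.1 and 129.4 CPM in TL+L and 470.2, 591.3 and 556.2 CPM in PBS. Each of TSeL+L, TSeL, TL+L 1 and TL+L 3 was below all PBS samples for Rptn. Its log2 fold change of TL+L against PBS was -0.60 (SE 0.55, adjusted p = 0.453). Without TL+L 2 it was -1.43 (adjusted p = 0.02), a fit in which 40% of all genes were called.

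**Figure D4:**
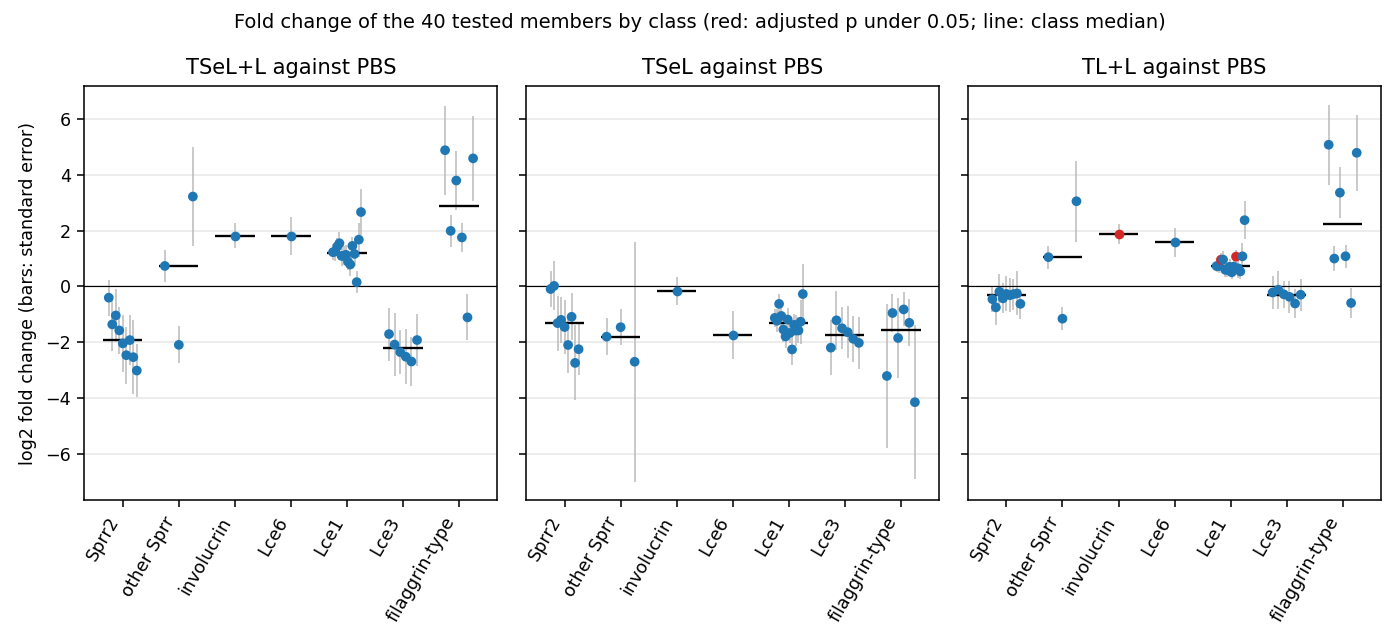
Log2 fold changes of the 40 tested members (points, bars are standard errors) by class against PBS, for TSeL+L, TSeL and TL+L; short lines are class medians and red points are calls at an adjusted p under 0.05. The 3 red points are Ivl, Lce1i and Lce1b in TL+L; in TSeL+L the Lce1 median was 1.19 and the Lce3 median -2.22, and in TSeL all class medians were below 0.

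In TSeL+L, Lce1 genes and the filaggrin-type genes other than Rptn had positive log2 fold changes against PBS, and Rptn (-1.11), Lce3 and Sprr2 genes had negative ones, although none passed the test. With 1 sample in TSeL+L, as in TSeL, assumed to vary like TL+L and PBS, no member was called, against 0.0127% of all genes (2 genes); at an unadjusted p under 0.05, 19 members were higher (9.55% of all genes) and 6 lower (11.1%). DESeq2 called 14 members, 8 higher and 6 lower, against 9.42% of all genes. The Lce1 median log2 fold change was 1.19, and 13 of 14 Lce1 genes lay above all PBS samples, against 35.9% of all genes. The Lce3 median was -2.22 with 6 of 6 below all PBS samples and the Sprr2 median -1.93 with 8 of 9 below, against 36.4% of all genes, and the filaggrin-type median was 2.89. The median over all genes was 0.00. Lce1a1 had a log2 fold change of 1.22 (SE 0.29, adjusted p = 0.116), Flg 1.99 (SE 0.58, adjusted p = 0.153) and Lce3f -1.93 (SE 0.92, adjusted p = 0.294).

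In TSeL, nearly every member was below its PBS level. None was called, nor was any of the other genes tested (0%), and at an unadjusted p under 0.05 12 members were lower (7.36% of all genes), of which 10 were Lce1 genes, and none was higher (12.3%). DESeq2 called 7 members, against 8.39% of all genes, and the fit of TSeL and PBS alone 9, against 2.71%. The median over the 40 members was -1.48 against 0.01 over all genes, 1 of 40 log2 fold changes was above 0 (50.6% of all genes), and 33 members were below every PBS sample (33.4% of all genes). The class medians were -1.32 for Lce1, -1.76 for Lce3, -1.32 for Sprr2 and -1.58 for the filaggrin-type genes. Lce1a1 had a log2 fold change of -1.13 (SE 0.33, adjusted p = 0.16) and Ivl of -0.17 (SE 0.51, adjusted p = 0.889). All 12 skeletal muscle markers stood higher in TSeL than in PBS by the fitted log2 fold change (median 2.18); the part of muscle content in the members' lower values was not tested. Scaled to basal keratinocyte markers, the fit could not lose calls, since the main fit had none. Over 15 other settings, that scaling included, the Lce1 median for TSeL against PBS ran from -1.52 to -1.21.

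Between the averaged samples TSeL+L and TSeL, all 14 Lce1 genes and all filaggrin-type genes but Rptn (log2 fold change 0.19) differed by more than any Lce3 or Sprr2 gene. Each group is 1 sample, so the p-values here rest wholly on the spread within TL+L and PBS and give no replicate check of the difference. No member and no other gene was called (0%), with DESeq2 18 members were called, against 2.3% of all genes, and at an unadjusted p under 0.05 22 members were higher in TSeL+L (4.89% of all genes), among them all 14 Lce1 genes, and none was lower (7.22%). The Lce1 median log2 fold change was 2.62 (range 1.73 to 3.05), the filaggrin-type median 4.30, the Lce3 median -0.83 and the Sprr2 median -0.38, against -0.07 over all genes. Lce1i had a log2 fold change of 2.83 (SE 0.45, adjusted p = 0.38) and Lce3f of 0.10 (SE 1.02, adjusted p = 0.976).

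Between TSeL+L and TL+L no member and no other gene was called by edgeR (0%), and DESeq2 called no member (0.00633% of all genes); at an unadjusted p under 0.05 none was higher (0.165% of all genes) and 3 were lower (0.171%). The Lce1 median was 0.49, the Lce3 median -2.02 and the Sprr2 median -1.65, and TL+L 3 lay close to TSeL+L in both of the lower classes. Between TSeL and TL+L none was called either (0%), DESeq2 called 21, against 11.1% of all genes, and at an unadjusted p under 0.05 21 were lower (7.93% of all genes) and none higher (12.9%), with an Lce1 median of -2.16. A test of any difference among the 4 groups called no member, against 1.1% of all genes (lowest adjusted p of a member 0.0625), and 24 passed an unadjusted p under 0.05, against 29.8%; DESeq2 called 27, against 26.7%. Counts of members here are out of the 40 tested, whereas the percentages are shares of all genes tested, so the numbers are not on the same scale. The comparisons share samples, so their results are not independent.

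Between TL+L and PBS, calls among other genes of envelope formation were all in the direction of higher levels in TL+L. Of 24 other cornified envelope and barrier genes, 6 rose (Cdsn, Klk5, Evpl, Ppl, Padi1 and Padi3) and none fell, with a median log2 fold change of 0.48. Among all genes tested 5.67% rose and 7.17% fell. The total share called, 12.8%, moved to between 0.101% and 40% when 1 sample was left out. Padi3 is also 1 of the 5 hair markers that rose. The 3 most abundant, Dmkn, Sbsn and Asprv1, had 0.48 (adjusted p = 0.0902), 0.69 (adjusted p = 0.0598) and 0.47 (adjusted p = 0.193). Cdsn encodes a corneocyte adhesion protein, and Evpl and Ppl encode plakin scaffold proteins of the envelope. Of 19 tested other genes of the complex, S100a1 and Crct1 rose and S100a4 and S100a11 fell; its most abundant gene was Tchh, which is also in the list of hair markers and had a log2 fold change of 4.81 (adjusted p = 0.0881). The next most abundant, S100a9 and S100a8, alarmins of stressed keratinocytes and neutrophils, had -1.08 (adjusted p = 0.19) and -1.02 (adjusted p = 0.211).

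Of 30 genes listed as transcription factors of keratinocyte differentiation, Gata3, Grhl1, Ovol1 and Tfap2a rose, as did Notch1, a receptor gene on that list. The AP-1 subunit genes Fosl1 and Fosl2 fell. For these and the cytokines below, the shares over all genes were 5.67% risen and 7.17% fallen between TL+L and PBS. Fosl2 stood at 247 CPM in TSeL+L, 299.2 CPM in TSeL, 264.8, 247.2 and 304 CPM in TL+L and 493.7, 452.6 and 563.4 CPM in PBS, with a log2 fold change of TL+L against PBS of -0.89 (SE 0.15, adjusted p = 0.0268). It was higher in each PBS sample than in any other sample. Nfe2l1, the most abundant gene of the list, had -0.13 (adjusted p = 0.584), and Junb, another AP-1 subunit gene, had -0.55 (SE 0.24, adjusted p = 0.153). Of 19 cytokines that act on keratinocytes, 7 fell (Il1a, Il1b, Il6, Il24, Osm, Tnf and Ereg) and none rose, with a median of -0.77. Il1b, the gene of interleukin-1 beta and the most abundant of them, stood at 331.8 CPM in TSeL+L, 384.8 CPM in TSeL, 203.1, 242.1 and 164.5 CPM in TL+L and 888.7, 738.6 and 1265 CPM in PBS, with a log2 fold change of TL+L against PBS of -2.25 (SE 0.26, adjusted p = 0.012). Called genes named here beyond the 3 most abundant of a list were chosen after their values were seen.

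Markers of cell types and states differed between samples along with the classes, and their part in the members' values was not tested. The summed level of 8 spinous keratinocyte markers was 10420 CPM in TSeL+L, 2958 CPM in TSeL, 5391, 7776 and 6185 CPM in TL+L and 4283, 5517 and 3642 CPM in PBS, so TSeL+L was highest and TSeL lowest as for Lce1; 2 of the 8 rose in TL+L against PBS. The sum of 8 stress keratinocyte markers, such as Krt6a and Krt16, was 5004 CPM in TSeL+L, 9478 CPM in TSeL, 15650, 8119 and 5728 CPM in TL+L and 15000, 18180 and 10850 CPM in PBS. TSeL+L and TL+L 3 were lowest, as they were for Sprr2, and none of the 8 was called. The sum of 14 neutrophil markers was 1807 CPM in TSeL+L, 4134 CPM in TSeL, 4966, 2894 and 1342 CPM in TL+L and 8921, 8128 and 5748 CPM in PBS. All PBS samples were above all others, and 11 of the 14 fell in TL+L against PBS. S100a8 and S100a9 are in both the stress and the neutrophil list, so these sums are not separate measures. These shared genes were the most abundant of the neutrophil list, at 2686 and 4003 CPM in PBS 1 and 1854 and 2788 CPM in TL+L 1. Neither S100a8 nor S100a9 was called. Of 7 basal keratinocyte markers 1 rose and none fell, and of 10 sebaceous gland markers 7 rose and none fell. Of 12 muscle markers none was called, of 8 adipocyte markers 2 rose, of 7 fibroblast markers 1 fell and of 8 cell cycle markers 1 rose. Of 3 tested genes listed for oral and forestomach epithelium, which include the members Crnn and Rptn, only Krt84 rose. Krt84 was highest in TL+L 3 (46.2 CPM), the sample with the highest hair marker sum. Krt4, Krt13 and Krt76 of that list stood at 0 to 0.305 CPM in every sample. Whether Krt84 marks oral epithelium here was not tested. Beside all these counts, 5.67% of all genes rose and 7.17% fell between TL+L and PBS.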

How the data were processed

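Flash-frozen skin went through Trizol extraction and TruSeq library preparation with oligo-dT beads, per the labels. Bowtie2 and RSEM are named in the submitters' processing notes; versions, build, annotation and strand setting are not given in the sources used. The authors deposited expected counts and TPM per gene. Of the deposited expected counts 88.7% were whole, and all were rounded. Deposited TPM values were summed over classes and not tested; for TSeL and TSeL+L the authors' mean columns were taken. The gene table's 18 other per-sample columns were not used. The members and gene lists were chosen with earlier results of these data known.

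TS and TSL in the column codes were taken to mean TSeL and TSeL+L. Pairs of the 3 columns of a group had mean chi-squares, over genes of 40 or more counts, of 1.38 to 1.49 in TSeL+L and 1.19 to 1.41 in TSeL; TL+L had 60.9 to 184 and PBS 25.1 to 59. Over the members alone they were 2.03 to 7.14 in TSeL+L, 0.742 to 1.67 in TSeL, 715 to 1250 in TL+L and 137 to 256 in PBS. The near-identical columns were averaged, which left 8 samples and 4 residual degrees of freedom; all 12 columns as separate samples were run as an alternative.

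After filterByExpr, edgeR 4.0.16 (R 4.3.3) was run with TMM factors of 0.852 to 1.1, 1 coefficient per group and a robust, two-sided quasi-likelihood F-test. CPM values use these factors. The standard error is the absolute log2 fold change over the square root of F. The test was checked on simulated counts. Alternatives were DESeq2 1.42.0, limma-voom (limma 3.58.1), other scalings, no filter or a stricter one (10 counts in 3 samples, mean of 1 CPM), fits of the compared groups alone, the replicate number as a block and leave-one-out fits. DESeq2 left 1 to 2144 genes a comparison without an adjusted p; its shares are of all 15791 genes. Members named with all values by rule were those called and, of each of 4 families (Lce, Sprr, filaggrin-type and Ivl), the 2 with the highest mean CPM and the 1 with the largest range; Sprr1a, Sprr1b, Sprr4 and Tchhl1 were added after their values were seen; of other lists, up to 3 genes with the highest mean CPM were named. Promoter windows came from RefSeq (GRCm38.p6) and shared words from GENCODE vM21 transcripts. Count intervals are exact Poisson intervals and cover counting error only.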

Additional observations from a re-analysis of the deposited data

How the results depend on the processing

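Counts of members called, each with the share of all genes called under the same setting, moved as follows. For TL+L against PBS, 3 members (12.8% of all genes) became 13 with DESeq2 (25.7%), 6 with library totals (15.3%), 21 with all 12 columns as separate samples (46.5%) and 0 scaled to basal keratinocyte markers (1.59%), and leaving out 1 sample gave 0 to 9 (0.101% to 40%). For TSeL against PBS 0 became 7 with DESeq2 (8.39%), 9 with only the groups compared (2.71%), 29 with 12 columns (42.3%) and 0 to 4 leaving out 1 sample (0% to 8.35%). For TSeL+L against PBS 0 became 14 (9.42%), 25 (11.6%) and 34 (46%) under the same 3 settings and 0 to 5 leaving out 1 sample (0% to 13.7%). For TSeL+L against TSeL 0 became 18 with DESeq2 (2.3%) and 22 with 12 columns (42.9%). For TSeL against TL+L 0 became 21 with DESeq2 (11.1%), 30 with 12 columns (43%) and 0 to 12 leaving out 1 sample (0% to 19.9%). For any difference among groups 0 became 27 with DESeq2 (26.7%), 2 with library totals (1.49%), 35 with 12 columns (66.4%) and 0 to 13 leaving out 1 sample (0% to 33.3%). Each highest count of these leave-one-out ranges came without TL+L 2. The 12 columns count near-identical columns as separate samples; the cause of the other shifts was not tested. For TSeL+L against TL+L the count was 0 under every setting run.

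Some uncalled members reversed in direction, most often when 1 sample was left out. Over those fits, the log2 fold change of TL+L against PBS ran from -0.87 to 0.16 for Lce3f and from -1.16 to 0.28 for Sprr2i, each highest without TL+L 3. That of TSeL against PBS ran from -0.46 to 0.31 for Sprr2a1 (highest without PBS 1). That of TSeL+L against TL+L ran from -0.89 to 0.32 for Rptn, from -0.66 to 0.84 for Crnn, from -0.31 to 0.47 for Ivl, from -0.11 to 0.93 for Lce6a and from -0.15 to 0.38 for Sprr2a1, and that of TSeL against TL+L from -1.15 to 0.12 for Rptn. With limma-voom Sprr2a1 had 0.041 for TSeL against PBS, and for TSeL+L against TL+L Crnn had 0.28 and Ivl 0.065. With library totals Sprr2a1 had 0.034 for TSeL+L against TSeL. Scaled to basal keratinocyte markers, Crnn had 0.205 and Ivl 0.29 for TSeL+L against TL+L. Over all genes, the median for TL+L against PBS was 0.15 with library totals (-0.296 to 0.273 over the 6 comparisons) and -0.16 scaled to basal keratinocyte markers (-0.161 to 0.272).

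PBS and TL+L samples share replicate numbers, but deviations of same-numbered samples correlated at -0.175, 0.13 and 0.212, so the numbers were not taken to pair them. With the replicate block 3 members were called for TL+L against PBS. Depth limited Sprr3 and Sprr4.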
